A study of Mus musculus with 32 samples.

Results

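The keratin-associated protein genes, named Krtap in the mouse, were described across 32 bulk CEL-seq2 libraries of mouse skin material. Every name that begins with Krtap and a number was taken as a member, which gave 53 genes of the 19974 names in the count files. The number after Krtap sorts them into 25 subfamilies. The gene Krtdap, whose name looks alike, is not one of them.

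All material came from mice of the strain the labels write as Bl/6. The follicle groups were 3 libraries of hair follicles in anagen, the growth phase, and 3 libraries of a mixture of follicles in anagen and in telogen, the resting phase. The remaining tissue group was 3 libraries of Itga6+Sca1+ cells sorted from the interfollicular epidermis, the skin surface between the follicles. The other 23 libraries were bulk cells of organoids, cultured 3-dimensional epidermal cell clusters, harvested 7 days after the start of culture or the last passage. Late organoids (6 libraries, passages 23 to 30, within 6 months) had grown with forskolin, which raises cyclic AMP, and Fgf1. Early organoids (passages 7 to 12, within 3 months) had grown with forskolin and Fgf1 (2 libraries), forskolin and Fgf10 (4), forskolin and TgfB inhibitor (4), or TgfB inhibitor without forskolin (2). Unpassaged organoids had 1 library each with forskolin, forskolin and Fgf1, forskolin and Fgf10, forskolin and TgfB inhibitor, and TgfB inhibitor. No label tells if replicates are separate mice or cultures, so p-values measure only the spread between these libraries, which may be technical. Nor do the labels say how many follicles or mice were pooled, or in what proportion anagen and telogen follicles were mixed.

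Hair is built from keratin filaments embedded in a matrix of keratin-associated proteins, which are crosslinked to the keratins and to each other through disulfide bonds. The genes are expressed in the differentiating cells of the hair shaft above the matrix of the growing follicle. Their proteins are rich either in cysteine (the high-sulfur and ultra-high-sulfur families, such as Krtap subfamilies 1 to 5, 9 and 17) or in glycine and tyrosine (subfamilies 6, 7, 8, 19, 20, 21 and 22). Most of the genes have a single exon and lie in tandem clusters.

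The clusters were visible in the annotation of the files' build, mm10. Of the 53 members, 23 lay on chromosome 16 within 960 kb (88610705 to 89571183), and 22 lay on chromosome 11 within 444 kb (99550130 to 99993994). A further 5 members, all of subfamily 5, lay on chromosome 7, and 3 members of subfamilies 10 and 12 lay on chromosome 10. The 3 members on chromosome 10 lie within the gene Tspear, and Krtap14 and Krtap15 overlap each other on opposite strands. These overlaps are of whole gene spans. The sources used here do not say whether counting used strand, so it is not known if reads of such genes were kept apart. Near-identical copies are a second limit. Of the 50-base words in the last 500 bases of the transcript, under 5% occurred in another gene for 35 members, but 91.1% did for Krtap4-13, 60.8% for Krtap5-1, 43.7% for Krtap10-4 and 33.9% for Krtap5-2, so the split of counts among these and their relatives is uncertain.

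Library totals were 1385192 to 3351435 counts in the follicle libraries and 412582 to 3127190 in the others. Levels are given as CPM, counts per 1000000 counts of the library without spike-ins. CEL-seq2 counts transcripts at their 3′ ends, so CPM was not divided by transcript length. Defining markers were checked against the tissue labels: hair shaft and inner root sheath keratins were found in all 6 follicle libraries, and sorted epidermis had 21839 to 25545 CPM of basal and suprabasal epidermal markers, no count of the inner root sheath keratins, and 115 to 165 CPM of hair shaft keratins.

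Krtap transcripts made up a large part of the follicle libraries. They took 5.40%, 2.60% and 23.2% of all counts in anagen replicates 1, 2 and 3, and 20.6%, 14.5% and 40.5% in mixed replicates 1, 2 and 3. The means were 10.4 ± 11.2% (SD, n = 3) and 25.2 ± 13.6% (SD, n = 3), and the groups overlapped because anagen replicate 3 lay above mixed replicates 1 and 2. The mean of the mixed follicles was 2.42 times that of the anagen follicles, a description with no test. Without anagen replicate 3 the anagen mean fell to 0.159 of the mixed mean, against 0.413 with it. In bulk tissue, fewer shaft cells and less RNA per cell cannot be told apart. Each follicle group also has its own deposited table, so the tissue and any difference in preparation cannot be told apart either.

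**Figure D1:**
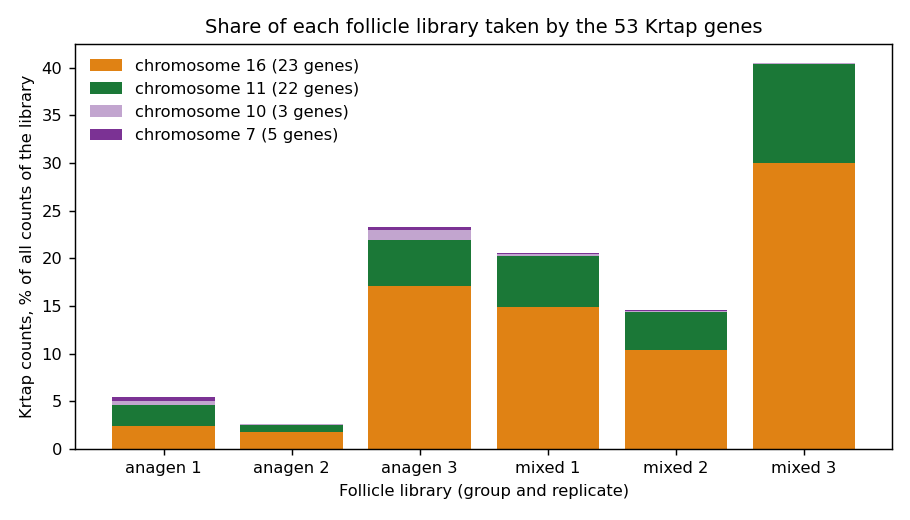
Bars give the percentage of each follicle library's counts that came from the 53 Krtap genes, stacked by chromosome. Chromosome 16 gives the largest part in every library, from 45.1% of the Krtap counts in anagen replicate 1 to 74.03% in mixed replicate 3.

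The hair shaft keratins, the filament partners of these proteins, ranked the libraries as the Krtap share did, except for mixed replicate 3. Their sum over 15 listed genes was 23656, 19838 and 60636 CPM in the anagen libraries and 57453, 26281 and 23733 CPM in the mixed libraries. The ratio of Krtap counts to shaft keratin counts was therefore 2.28, 1.31 and 3.83 in anagen replicates 1, 2 and 3, and 3.58, 5.53 and 17.1 in mixed replicates 1, 2 and 3. Mixed replicate 3 had the highest Krtap share of the 6 libraries without having the highest keratin sum.

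The signal was spread unevenly. The 10 leading members held 60.2% to 84.9% of a library's Krtap counts, and the 3 leading members held between 31.9% (mixed replicate 3) and 59.1% (anagen replicate 2). The highest mean over the 6 libraries was 22230 CPM for Krtap8-1 and 19484 CPM for Krtap22-2, both of glycine-tyrosine subfamilies, followed by 10701 CPM for Krtap15 and 10482 CPM for Krtap26-1. The order differed by group: in anagen follicles the highest mean was that of Krtap26-1 (17014 CPM), above Krtap8-1 (14003 CPM) and Krtap22-2 (6674 CPM), and it was the leading member in anagen replicates 2 and 3. In anagen replicate 2, Krtap26-1 alone was 35.8% of the Krtap counts. At the other end, Krtap9-5 did not exceed 0.722 CPM in any library, and Krtap4-13, with the most shared sequence, lay at 2.69 to 3.58 CPM in the mixed libraries and is not listed for the anagen libraries.

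**Figure D2:**
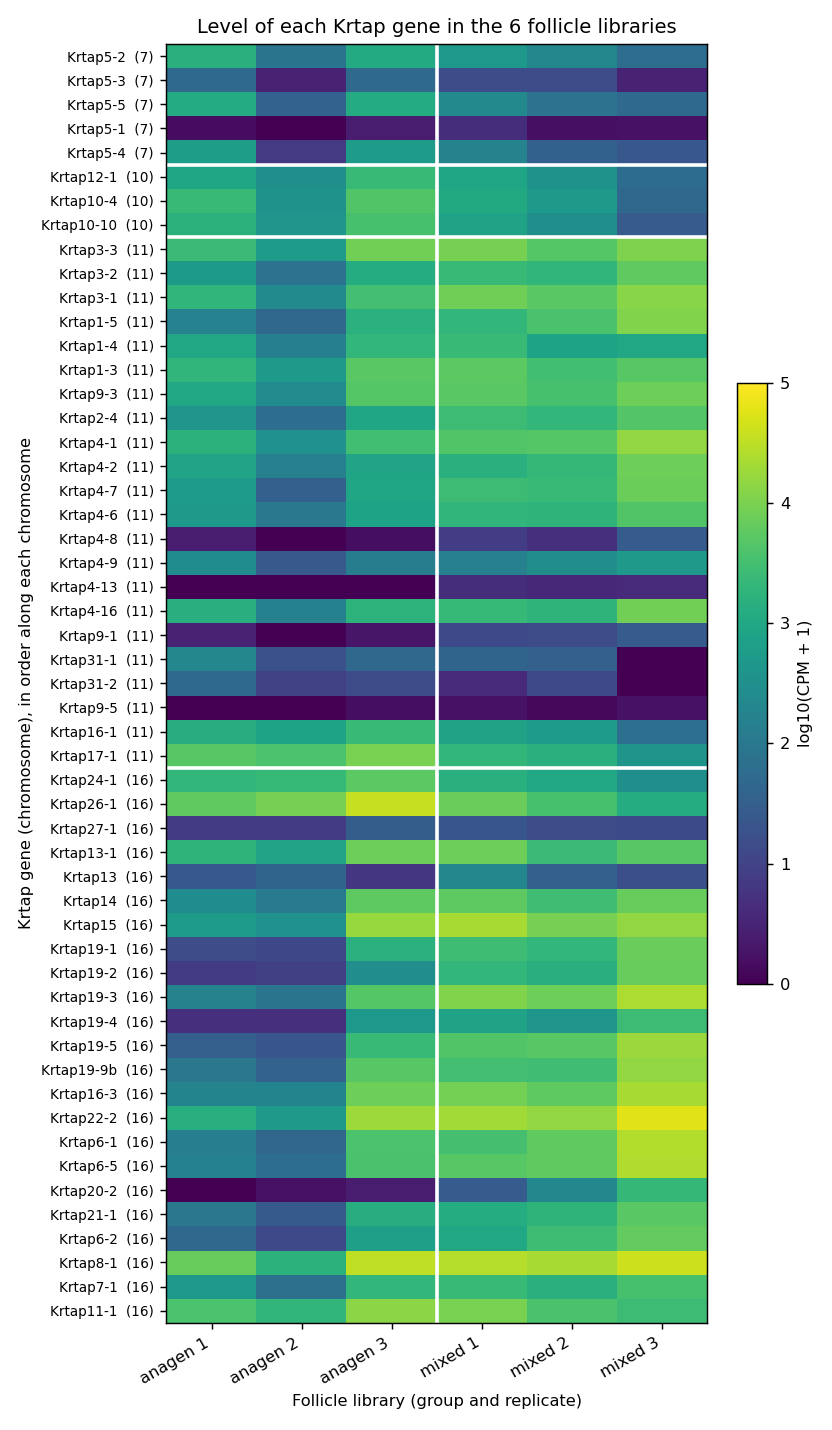
Each row is a Krtap gene, in its order along the chromosome given in brackets, and each column a follicle library. Colour gives log10(CPM + 1). Krtap8-1 and Krtap22-2 are bright in the mixed libraries and in anagen replicate 3, while Krtap17-1, Krtap24-1 and Krtap26-1 are dimmest in mixed replicate 3.

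Anagen and mixed follicles were compared gene by gene by the quasi-likelihood test of edgeR, with p-values adjusted over the 10843 genes tested by the Benjamini-Hochberg method and a threshold of 0.05. Of the 53 members, 49 had enough counts to be tested. Krtap20-2 and Krtap9-1 fell in anagen follicles and no member rose, so 2 of 49 were called, beside 6.63% of all genes tested. By direction, 0 of 49 members were called higher, beside 1.21% of all genes, and 2 of 49 were called lower, beside 5.42% of all genes. These shares are near the background and are no result about the family. Both called members had passed the filter on low counts only through the mixed libraries, so their calls give no support to the family's direction. The median log2 fold change of the 49 members was -1.88, against 0.09 for all genes tested.

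The call count depended on single libraries and on the filter. With anagen replicate 3 left out, 23 of 49 members were called, all lower in anagen follicles, beside 6.3% of all genes in that setting. The median log2 fold change of the members was then -4.30, and it was -1.0 without mixed replicate 3. Without anagen replicate 1, and likewise without mixed replicate 3, Krtap20-2 was the only member called, beside 5.21% and 4.35% of all genes. Without anagen replicate 2, Krtap20-2 and Krtap5-5 were called, the second of them higher, beside 3.84% of all genes. With no filter on low counts, 28 of 53 members were called, 24 of them lower, beside 5.34% of all genes.

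Krtap20-2, a small glycine-tyrosine member of chromosome 16 (89205861 to 89206394), was nearly absent from anagen follicles. It had 0, 0.658 and 1.54 CPM in anagen replicates 1, 2 and 3 and 27.2, 207 and 2128 CPM in mixed replicates 1, 2 and 3. Even the lowest mixed library lay above every anagen library. The fitted log2 fold change was -10.95 (SE 1.77, edgeR adjusted p = 0.0011), and its size is imprecise since the anagen libraries together held 4 counts. The mixed libraries also differed from each other, with the highest 78.2 times the lowest.

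Krtap9-1, on chromosome 11 (99873389 to 99874432), was a rare transcript in both groups. Its levels were 1.94, 0 and 1.03 CPM in the anagen libraries and 11.5, 13.4 and 28.2 CPM in the mixed libraries. The groups did not overlap. The log2 fold change was -4.76 (SE 0.97, edgeR adjusted p = 0.0153), with 6 counts in all in the anagen libraries.

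Among the 47 tested members that were not called, the direction of the mean split along the subfamilies. Mean CPM was higher in anagen follicles for 14 of the 53 members and higher in mixed follicles for 39. Scaling by TMM, which the test uses, lowered log2 ratios of anagen over mixed by 0.58 against library totals, and all 49 tested members kept their side, 14 on the anagen side and 35 on the mixed side. On the CPM scale, every anagen library lay above every mixed library for 3 of 53 members (Krtap16-1, Krtap17-1 and Krtap24-1), beside 15% of the 18161 names with a count in the follicle libraries. Every anagen library lay below for 19 of 53 members, beside 6.32% of those names. On the TMM scale, 1 of 49 members (Krtap17-1) lay wholly above, beside 14.3% of all genes tested, and 16 of 49 lay wholly below, beside 16.7% of all genes tested.

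The 14 members with the higher mean in anagen follicles were 4 of the 5 of subfamily 5, the 3 of subfamilies 10 and 12, Krtap11-1, Krtap16-1, Krtap17-1, Krtap24-1, Krtap26-1 and both of subfamily 31. None of them passed the test. Of the 14, 10 were lowest in mixed replicate 3. The 39 others included every member of subfamilies 1 to 4, 6 to 9, 13 to 15, 19 to 22 and 27, and 31 of them were highest in mixed replicate 3. The library that was richest in the second set was thus the poorest in most of the first.

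Krtap17-1, an ultra-high-sulfur member at the end of the chromosome 11 cluster, showed the first pattern. It had 5138, 3761 and 10068 CPM in anagen replicates 1, 2 and 3 and 2004, 1504 and 378 CPM in mixed replicates 1, 2 and 3. The lowest anagen library lay above the highest mixed library, and the fitted log2 fold change of 2.15 (SE 0.75) did not pass the test (edgeR adjusted p = 0.14). Without anagen replicate 3 it was 0.98. Its neighbour Krtap16-1, singled out after its values were seen, had 1309, 804 and 2457 CPM against 755, 564 and 65.0 CPM, again with no overlap on this scale.

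At the first end of the chromosome 16 cluster, Krtap24-1 and Krtap26-1 also had the higher mean in anagen follicles. Krtap24-1 had 2017, 2277 and 5427 CPM in the anagen libraries and 1503, 932 and 311 CPM in the mixed libraries, without overlap. Krtap26-1 had 6147, 9302 and 35594 CPM in the anagen libraries and 7106, 3493 and 1250 CPM in the mixed libraries, where mixed replicate 1 lay above anagen replicate 1. Their log2 fold changes, 1.70 (SE 0.73) and 2.11 (SE 0.98), did not pass the edgeR test (adjusted p = 0.23 and 0.26). Without anagen replicate 3 they were 0.42 and 0.17. On the TMM scale the libraries of Krtap24-1, like those of Krtap16-1, overlapped between the groups.

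Subfamilies 5 and 10 are known from the hair cuticle, the outer cell layer of the shaft. Krtap10-4 had 2478, 364 and 4360 CPM in the anagen libraries and 1064, 481 and 45.5 CPM in the mixed libraries, so anagen replicate 2 lay within the mixed range. Krtap5-2 had 1524, 82.2 and 1145 CPM in the anagen libraries and 460, 197 and 61.4 CPM in the mixed libraries, with anagen replicate 2 again low. Krtap5-2 and Krtap10-4 thus set anagen replicate 2 apart from the other anagen libraries, while Krtap24-1 and Krtap26-1 did not. This is not particular to them, as anagen replicate 2 was the lowest library in 32 of the 39 members with the higher mean in mixed follicles.

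Genes of the cuticle were measured beside them. Krt32, a cuticle keratin, had 3863, 10339 and 8481 CPM in the anagen libraries and 3052, 1625 and 483 CPM in the mixed libraries (log2 fold change 1.86, SE 0.68, edgeR adjusted p = 0.12). S100a3, a calcium-binding protein of cuticle cells, had 7705, 15347 and 15156 CPM against 5322, 3684 and 1128 CPM. Both were lowest in mixed replicate 3, as most of the 14 members were. The other keratins known from the cuticle, singled out for that, did not share one direction. Krt82 had a log2 fold change of 2.11 and Krt40 of 1.92, while Krt85, Krt35 and Krt39, which are found in other shaft cells too, had 0.46, -0.14 and -0.40. None of these keratins passed the test, and the median over the hair shaft keratin list was -0.23. The part of cuticle cells in these member levels was not tested.

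The glycine-tyrosine members gave the opposite picture. Subfamily 19, with 6 members, summed to 327, 164 and 14622 CPM in anagen replicates 1, 2 and 3 and to 24486, 19608 and 74411 CPM in mixed replicates 1, 2 and 3. Subfamily 6, with 3 members, summed to 336, 120 and 8065 CPM against 9438, 14797 and 58303 CPM. On this scale both subfamilies lay lower in every anagen library than in any mixed library, with anagen replicate 3 far above the other anagen libraries. On the TMM scale both overlapped, since anagen replicate 3 lay above mixed replicate 2 in subfamily 19 (25426 against 24789) and above mixed replicate 1 in subfamily 6 (14024.5 against 13347). Their leading members did not pass the test. Krtap19-3 had a log2 fold change of -3.28 (SE 1.57, edgeR adjusted p = 0.28), and Krtap6-5 one of -3.56 (SE 1.63, edgeR adjusted p = 0.26). Without anagen replicate 3 these were -8.05 and -8.14, and without mixed replicate 3 they were -2.20 and -1.85.

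Krtap22-2 had 1349, 481 and 18191 CPM in the anagen libraries and 20680, 15589 and 60616 CPM in the mixed libraries. Krtap8-1 had 6893, 1604 and 33514 CPM in the anagen libraries and 27961, 21799 and 41612 CPM in the mixed libraries. In both genes anagen replicate 3 reached into the mixed range and the other anagen libraries did not.

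Subfamilies 2, 3 and 4 of chromosome 11, with cysteine-rich proteins, had the higher mean in mixed follicles too, unlike Krtap16-1, Krtap17-1 and subfamily 31 of that chromosome. Their mean CPM, mixed over anagen, was 6.85, 3.20 and 5.30. These ratios lay below those of subfamilies 6 (9.69) and 19 (7.84), but not all below those of Krtap22-2 (4.84) and Krtap8-1 (2.17). Subfamily 4, with 8 members, summed to 5138, 798 and 7402 CPM in the anagen libraries and 12895, 13013 and 44778 CPM in the mixed libraries. Subfamily 3 summed to 5033, 890 and 13252 CPM against 19827, 11935 and 29576 CPM. Subfamily 2 has only Krtap2-4, which had 403, 62.5 and 896 CPM against 2643, 2066 and 4629 CPM. Subfamily 3 overlapped between the groups through anagen replicate 3, and subfamilies 2 and 4 did not. Krtap2-4 had a log2 fold change of -3.18 (SE 1.06, edgeR adjusted p = 0.12), and -4.94 without anagen replicate 3.

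Within a subfamily the members did not always run together. In subfamily 1, Krtap1-5 had 166, 48.7 and 1551 CPM in the anagen libraries and 2047, 3593 and 11530.5 CPM in the mixed libraries, without overlap. Krtap1-4 had 942, 144 and 2057 CPM against 2317, 778 and 993 CPM, with anagen replicate 3 near the highest mixed library. Krtap16-3 lies on chromosome 16 and Krtap16-1 on chromosome 11, and they lay on opposite sides. Krtap16-3 had 177, 182 and 7949.6 CPM in the anagen libraries and 8852, 5778 and 22306 CPM in the mixed libraries, so anagen replicate 3 fell within the mixed range.

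Between the ends of the chromosome 16 cluster, several members peaked in mixed replicate 1 or anagen replicate 3. Krtap15 had 558, 342 and 16927 CPM in the anagen libraries and 21709, 9261 and 15409 CPM in the mixed libraries. Krtap13-1 had 1783, 836 and 7973 CPM against 7835, 2535 and 4946 CPM. Krtap11-1, at the far end, had 3880, 1947 and 13811 CPM against 9751, 3590 and 2702 CPM. In each of these 3 genes the groups overlapped, and anagen replicate 3 lay far above the other anagen libraries. Krtap13 was rare and took another course, with 22.8, 39.5 and 5.13 CPM against 198, 32.5 and 15.9 CPM.

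The rare members add little. Krtap27-1 stayed between 6.58 and 29.2 CPM in all 6 libraries. Subfamily 31 summed to 253, 25.0 and 58.5 CPM in the anagen libraries and to 43.0, 44.5 and 0 CPM in the mixed libraries. The 4 members with too few counts for the test were Krtap4-8, Krtap4-13, Krtap5-1 and Krtap9-5, none above 28.2 CPM. Of the 49 tested members, 44 passed the filter on low counts in both groups, Krtap19-4, Krtap27-1, Krtap20-2 and Krtap9-1 only through the mixed libraries, and Krtap31-2 only through the anagen libraries.

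Anagen replicate 3 stood apart in a block of neighbouring genes, a pattern singled out after the values were seen. On the CPM scale it was more than 10 times as high as both other anagen libraries in 14 members, all on chromosome 16. They were places 6 to 20 of the 23 along the cluster, from Krtap14 to Krtap6-2, with Krtap20-2 as the only member between them that was not among the 14. Krtap19-1 gave the largest of these ratios, with 14.1 and 11.2 CPM in anagen replicates 1 and 2 and 1552 CPM in replicate 3, 123 times their mean. Across all members the median of this ratio was 4.26. In 36 of 53 members anagen replicates 1 and 2 lay below all 3 mixed libraries in CPM, beside 7.1% of the 18161 names with a count in the follicle libraries, and in 19 of these anagen replicate 3 did so too.

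**Figure D3:**
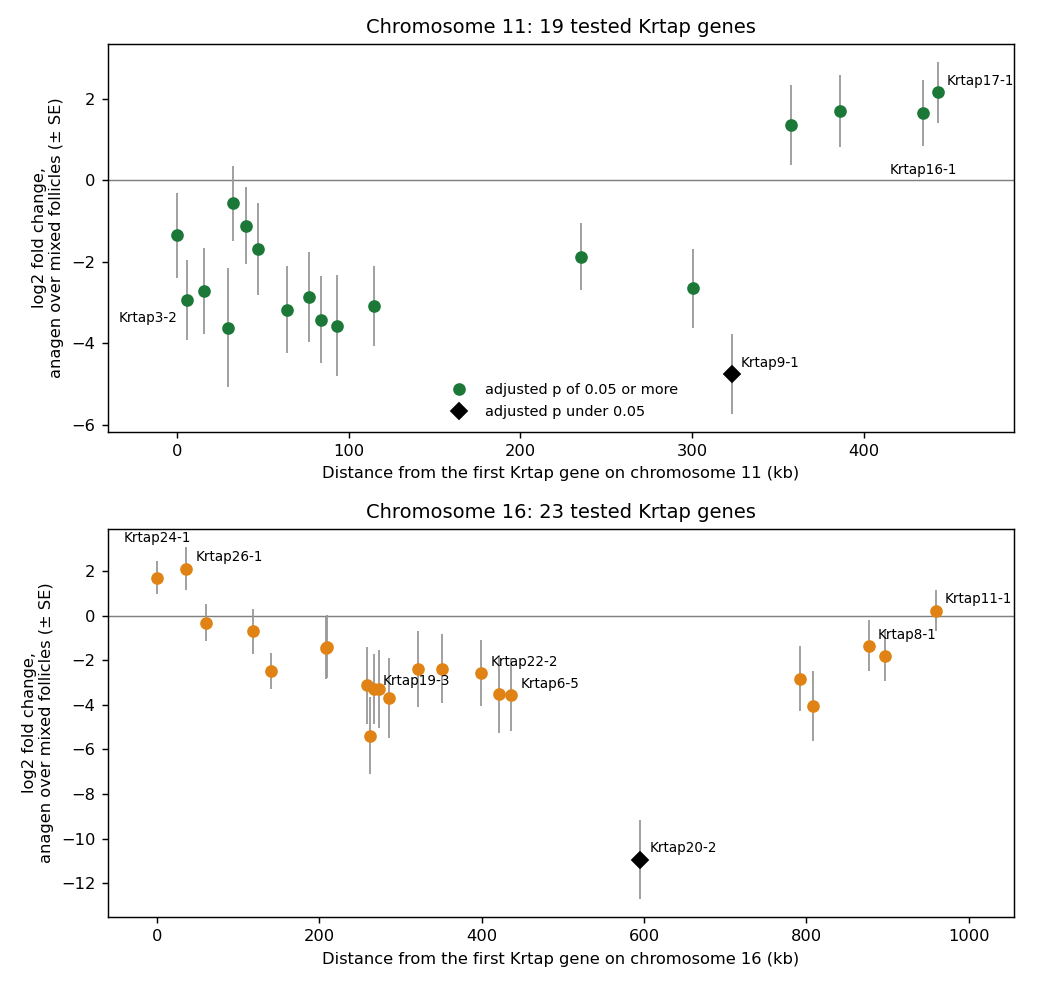
Points give the log2 fold change of anagen over mixed follicles with its standard error, from edgeR, for the tested Krtap genes of chromosomes 11 and 16, against their distance from the first Krtap gene of that chromosome. Diamonds mark the 2 called members, Krtap9-1 and Krtap20-2. Positive values lie at the end of the chromosome 11 cluster and at both ends of the chromosome 16 cluster, where Krtap11-1, at 0.22, is close to 0.

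Markers of other cells differed between the same libraries. The outer root sheath and bulge list summed to 2612, 1477 and 509 CPM in the anagen libraries and 8369, 17649 and 10945 CPM in the mixed libraries, and 6 of its 13 tested genes fell in anagen follicles, with none called higher. The basal and suprabasal epidermis list, which shares genes with it, summed to 2388, 1149 and 372 CPM against 7955, 14087 and 8870 CPM, with 3 of 10 tested genes lower. Antigen presenting and blood cell genes summed to 13.6, 3.29 and 5.13 CPM against 106, 303 and 173 CPM, with 5 of 7 tested genes lower and a median log2 fold change of -4.86. The fibroblast and dermal papilla list summed to 540, 114 and 36.4 CPM against 896, 1934 and 897 CPM, with 4 of 6 tested genes lower. Beside these counts stand the 5.42% of all genes called lower and 1.21% called higher. No gene of these 4 lists was at 0 in all follicle libraries. The inner root sheath keratins ran the other way, at 40154, 51724 and 32831 CPM against 17100, 14844 and 8138 CPM. Anagen replicate 3, the highest anagen library in Krtap share, was the lowest anagen library in these lists, except that replicate 2 was lower in antigen presenting and blood cell genes. The part of these cells in the Krtap levels was not tested.

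The lists of other hair genes gave few calls. Of 14 tested genes on the hair shaft keratin list, 1 fell and none rose, and the median log2 fold change was -0.23. The gene that fell was Krt84, named for that reason, with 114, 84.2 and 49.8 CPM in the anagen libraries and 4110, 1730 and 1225 CPM in the mixed libraries. Of 11 tested regulators of the hair matrix and cortex, none was called, and their median was 0.79. Hoxc13, a transcription factor required for hair keratin gene expression, had 347, 300 and 245 CPM in the anagen libraries and 337, 315 and 199 CPM in the mixed libraries, so the groups overlapped. Of 7 tested inner root sheath keratins, 1 rose, Krt72, named for that reason, and the median was 1.24.

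Since the Krtap share differs so much between libraries, the make-up of the Krtap counts was also described, which does not depend on any scaling between libraries. Krtap26-1 held 11.4%, 35.8% and 15.3% of the Krtap counts in anagen replicates 1, 2 and 3, and 3.45%, 2.40% and 0.309% in mixed replicates 1, 2 and 3. Krtap17-1 held 9.51%, 14.5% and 4.33% against 0.974%, 1.04% and 0.0933%. Subfamily 19 held 0.605%, 0.63% and 6.29% against 11.9%, 13.5% and 18.4%, and subfamily 6 held 0.623%, 0.461% and 3.47% against 4.59%, 10.2% and 14.4%. In all 4 of these shares the groups did not overlap, including anagen replicate 3. The share of Krtap8-1 overlapped between the groups, at 6.18% to 14.4% in the anagen libraries and from 10.3% upward in the mixed libraries. These subfamilies were picked after their levels were seen, and no test was made.

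**Figure D4:**
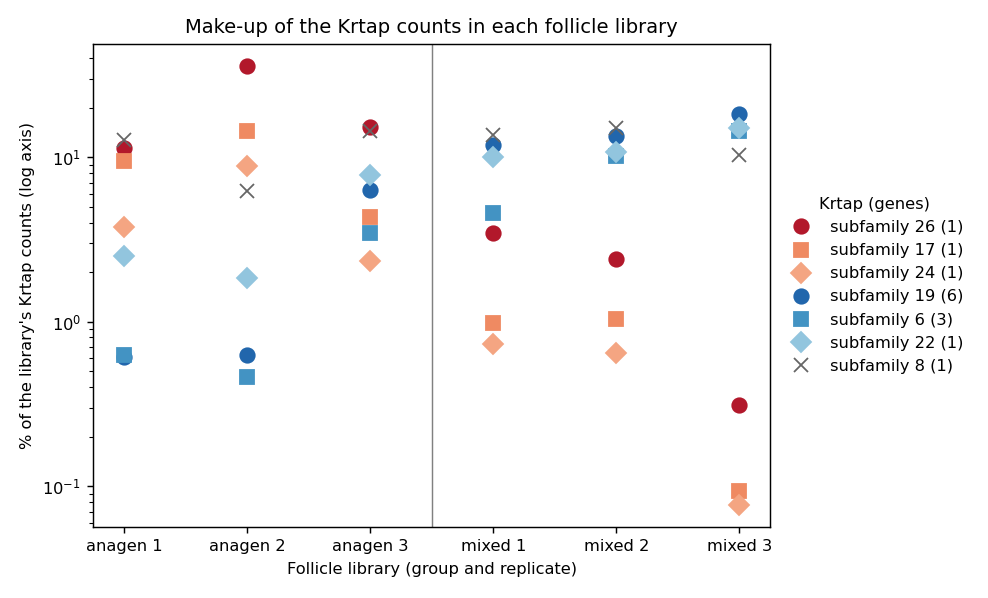
Points give the percentage of a library's Krtap counts held by a subfamily, on a log axis, with the number of its genes in brackets. Subfamilies 17, 24 and 26 are higher in all 3 anagen libraries than in any mixed library, and subfamilies 6, 19 and 22 are lower. The closest pair is subfamily 6, at 3.47% in anagen replicate 3 and 4.59% in mixed replicate 1.

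The DNA before the start sites was read to show what the members share in sequence. RefSeq promoters (build GRCm38.p6, 250 bases before the start) were found for 48 of the 53 members and not for Krtap1-3, Krtap7-1, Krtap9-1, Krtap10-10 and Krtap12-1. The TATA box core TATAAA occurred on the gene's strand in 38 of the 48 (79.2%), against 7.59% of the 32851 promoters of the whole table. On either strand the shares were 79.2% and 12.4%. The core began 40 to 20 bases before the start in 28 members (58.3%), against 1.99% of all promoters. A second form, TATATAA, which cannot hold TATAAA but can overlap one, occurred in 18 members (37.5%), against 2.05%. One or the other was found in 46 members (95.8%), against 8.70%, and the members without either were Krtap5-3 and Krtap5-4. The LEF1 core CTTTGA occurred on either strand in 25% of members and 13.8% of all promoters, and CTTTGT in 29.2% and 16.5%. A match is a description of these letters, not a site of binding.

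The last 100 bases before the start are printed for members of each pattern, 5′ to 3′ on the gene's strand, with TATAAA in capitals, or TATATAA where there is no TATAAA. Krtap17-1 (chr11:99993995-99994094, minus strand), Krtap24-1 (chr16:88612280-88612379, minus) and Krtap26-1 (chr16:88647797-88647896, minus) had the higher mean in anagen follicles. Krtap20-2 (chr16:89205761-89205860, plus), Krtap19-3 (chr16:88878039-88878138, minus), Krtap22-2 (chr16:89010760-89010859, minus), Krtap6-5 (chr16:89047900-89047999, minus) and Krtap8-1 (chr16:89487953-89488052, minus) had the higher mean in mixed follicles. Krtap3-2 (chr11:99556854-99556953, minus) is the member found outside follicles.
Krtap17-1: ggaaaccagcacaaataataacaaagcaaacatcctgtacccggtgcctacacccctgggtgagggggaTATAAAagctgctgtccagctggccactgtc
Krtap24-1: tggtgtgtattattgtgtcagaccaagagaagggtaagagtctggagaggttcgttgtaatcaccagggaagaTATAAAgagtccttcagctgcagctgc
Krtap26-1: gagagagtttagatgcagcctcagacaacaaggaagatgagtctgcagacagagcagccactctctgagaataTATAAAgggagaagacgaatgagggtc
Krtap20-2: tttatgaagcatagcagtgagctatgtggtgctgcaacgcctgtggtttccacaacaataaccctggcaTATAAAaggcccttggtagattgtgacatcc
Krtap19-3: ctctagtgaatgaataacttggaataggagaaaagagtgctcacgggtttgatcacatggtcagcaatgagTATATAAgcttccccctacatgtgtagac
Krtap22-2: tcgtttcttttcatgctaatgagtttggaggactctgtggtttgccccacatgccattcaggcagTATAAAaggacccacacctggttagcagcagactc
Krtap6-5: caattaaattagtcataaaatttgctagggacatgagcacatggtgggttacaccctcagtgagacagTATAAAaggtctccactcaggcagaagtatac
Krtap8-1: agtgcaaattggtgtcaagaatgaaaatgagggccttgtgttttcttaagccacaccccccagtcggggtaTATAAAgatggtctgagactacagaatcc
Krtap3-2: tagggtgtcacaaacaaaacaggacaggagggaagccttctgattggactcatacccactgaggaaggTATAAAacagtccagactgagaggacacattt
In the printed members with TATAAA it began 27 (Krtap24-1 and Krtap26-1) to 35 (Krtap22-2) bases before the start. The distance differed more among the rest: the match nearest the start lay at 55 bases in Krtap10-4, 61 in Krtap21-1 and 69 in Krtap6-1. Krtap19-3 is shown because it has the TATATAA form alone, 29 bases before the start.

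Outside follicles the family was close to absent. In sorted epidermis no Krtap count was found in any of the 3 libraries. A count of 0 allows up to 3 counts, which is 4.06 to 6.39 CPM in the single libraries and 1.71 CPM over their summed total, so the summed level was at least 60745-fold lower than the anagen mean of 104139 CPM. Anagen replicate 3 carries that mean, and against the lowest anagen library the fold was at least 15150.6. These files list at most 2 Krtap names, and a name that a file does not list was taken as 0. Against anagen follicles, 47 of the 49 tested members fell in sorted epidermis by edgeR's quasi-likelihood test, beside 19.4% of all genes called lower. The members passed the filter on low counts only through follicle libraries. Their direction was thus set beforehand, and the count is a description that gives no added support. No member was called higher, beside 14.8% of all genes, and 34.2% of all genes were called in either direction. Krtap9-1 and Krtap20-2, which are also near 0 in anagen follicles, were not called. Fitted fold changes against libraries at 0 depend on the model's prior count and are not given.

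Late organoids with forskolin and Fgf1 gave the same count. Their 6 libraries held 31 Krtap counts together, a summed level of 4.72 CPM, 22040-fold below the anagen mean and 5497-fold below the lowest anagen library. Again 47 of the 49 tested members fell against anagen follicles, beside 24.6% of all genes called lower. No member was called higher, beside 21.2% of all genes, and 45.8% of all genes were called in either direction. The members not called were again Krtap9-1 and Krtap20-2. Both comparisons use the same anagen libraries, and here too the members passed the filter only through follicle libraries, so the count is a description. Leaving out any 1 library moved these counts to between 45 and 48 of 49, all lower. Beside them, 1549 of 10753 to 2735 of 10801 genes tested were called lower.

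What remained outside follicles was almost all one gene. The 26 libraries without follicles held 219 Krtap counts, and 195 of them (89.04%) were Krtap3-2, a high-sulfur member at the start of the chromosome 11 cluster (99555823 to 99556853). In the follicle libraries Krtap3-2 gave 1.12% of the Krtap counts. It was found in 20 of the 26 libraries. The other 13 members with any count held at most 6 each, and 39 members had none. Krtap20-2 had 6 counts in 4 libraries, Krtap3-3 had 3 in 3 libraries, and Krtap4-16 had 3 in 1 library.

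Its neighbours did not share this. Krtap3-1 and Krtap3-3, which flank it within 16 kb and were higher in the follicles (2.95% and 3.47% of Krtap counts against 1.12%), had 1 and 3 counts outside follicles. None of the 50-base words at the end of the Krtap3-2 transcript was found in another gene. Krtap8-1, with the most counts of the family in the follicles (13.0%), had 2 counts outside. The counts of Krtap3-2 and Krtap8-1 stood at 21710 to 251674 in the follicle libraries and at 195 to 2 outside them.

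In follicles Krtap3-2 itself had 521, 80.2 and 1230 CPM in the anagen libraries and 2405, 1953 and 5931 CPM in the mixed libraries, without overlap. Its log2 fold change was -2.94 (SE 0.99), which did not pass the edgeR test (adjusted p = 0.097). It was -4.78 without anagen replicate 3 and -1.79 without mixed replicate 3.

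Among organoids, the highest single level of Krtap3-2 was in an early library given a TgfB inhibitor without forskolin. The early organoids of that kind had 54 and 15 counts, or 49.0 and 12.4 CPM, and the unpassaged library of that kind had 17 counts, or 7.64 CPM. With forskolin and TgfB inhibitor the 4 early libraries had 2, 1, 7 and 35 counts, or 2.72, 0.537, 2.99 and 21.6 CPM. With forskolin and Fgf10 the 4 early libraries had 4, 4, 21 and 4 counts, or 2.35, 2.68, 10.5 and 2.46 CPM. With forskolin and Fgf1 the 2 early libraries had 2 and 1 counts, or 0.821 and 0.39 CPM. Both early libraries with TgfB inhibitor alone lay above all 4 with forskolin and Fgf10, and these lay above both with forskolin and Fgf1. The libraries with forskolin and TgfB inhibitor overlapped each of these groups. Their highest (21.6 CPM) lay above the second early library with TgfB inhibitor alone (12.4 CPM). The unpassaged library with TgfB inhibitor alone (7.64 CPM) also lay below the highest with forskolin and Fgf10 (10.5 CPM). No test was made between them.

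Late organoids had 1, 0, 12, 8, 1 and 3 Krtap3-2 counts in replicates 1 to 6, or 1.80, 0, 3.84, 10.4, 1.55 and 2.86 CPM. Unpassaged organoids had 1 count with forskolin, 2 with forskolin and TgfB inhibitor, and none with forskolin and Fgf1 or with forskolin and Fgf10. At 1 to 4 counts a library these levels lie near the limit that a count of 0 allows.

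**Figure D5:**
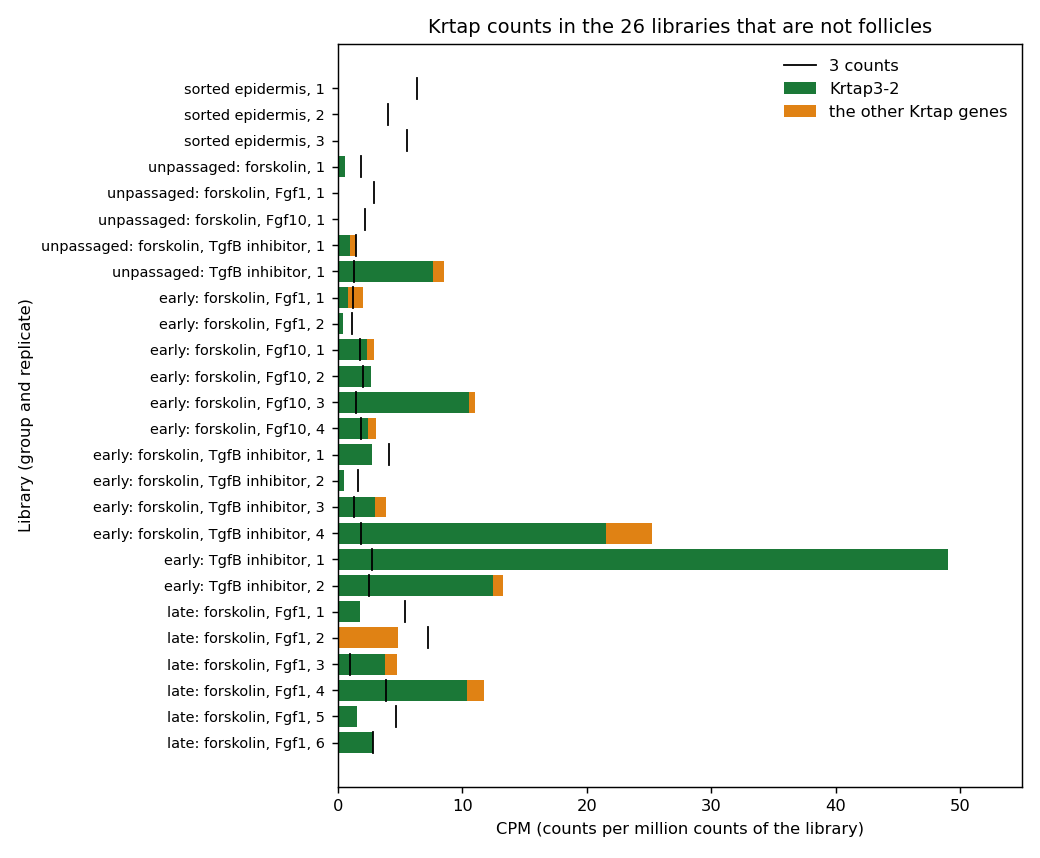
Bars give the summed CPM of Krtap3-2 and of the other Krtap genes in each library that is not from follicles, and the black tick marks 3 counts of that library. The first early library with TgfB inhibitor reaches 49.0 CPM, sorted epidermis has no bar, and most other bars stay near or below the tick.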

How the data were processed

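Bulk RNA was sequenced by CEL-seq2 (75 bp paired end), per the labels' protocols. The deposited values are whole-number counts per gene name, with BWA 0.6.2-r126 and build mm10 named in the submitters' processing notes. The counting tool and its use of molecular identifiers and of strand are not given in the sources used. Files with other column layouts were read in the same way, and all values were whole numbers. Members and lists were chosen with earlier results of these data known.

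CPM was computed on library totals without ERCC names, and an unlisted gene was taken as 0. Genes were tested with edgeR 4.0.16 (R 4.3.3; quasi-likelihood, TMM, filterByExpr with a minimum count of 10 and total of 15, Benjamini-Hochberg, 0.05) in one fit of 17 libraries from 5 groups, the 4 compared and early organoids with forskolin and Fgf1. The procedure was tested on simulated data. Alternatives were DESeq2 1.42.0, other scalings, no filter, other sets of libraries, thinned counts and a replicate block. Named members were those called without overlap, the 10 highest in follicles, the highest of each subfamily and those with 3 or more counts outside follicles (29 in all), and of each companion list up to 4 genes with the highest level. Other genes were named after their values were seen. Coordinates are from GENCODE M21. A planned sort by protein composition was not done here.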

Additional observations from a re-analysis of the deposited data

Results flagged for a closer look

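In each of the 3 organoid groups with 4 or more libraries, 1 library stood apart by Dixon's criterion at 95%, each time through Krtap3-2. In early organoids with forskolin and Fgf10, replicate 3 had a summed Krtap level of 11.03 CPM and 10.5 CPM of Krtap3-2, and the next library had 3.07 and 2.68 CPM. In early organoids with forskolin and TgfB inhibitor, replicate 4 had 25.3 CPM and 21.6 CPM of Krtap3-2, and the next library had 3.85 and 2.99 CPM. In late organoids with forskolin and Fgf1, replicate 4 had 11.7 CPM and 10.4 CPM of Krtap3-2, and the next library had 4.85 and 3.84 CPM. For normally spread values, which these low counts need not be, chance alone marks about 1 in 20 groups. The 2 measures are nearly the same counts. Follicle and epidermis groups have 3 libraries and were not tested in this way.

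Krtap counts above the limit of 3 counts also appeared in organoid groups that entered none of the comparisons, where sorted epidermis had none. Over each group's summed counts the level was 30.3 CPM in early organoids with TgfB inhibitor, 8.54 CPM in the unpassaged library with TgfB inhibitor, 8.08 CPM in early organoids with forskolin and TgfB inhibitor, 5.28 CPM in early organoids with forskolin and Fgf10, and 1.20 CPM in early organoids with forskolin and Fgf1.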

How the results depend on the processing

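For anagen against mixed follicles, 2 of 49 members were called in the reported fit, beside 6.63% of all genes. The count was also 2 with RLE scaling (beside 6.59%), upper quartile scaling (6.47%), DESeq2 (8.48%), only the 2 groups (11.3%) or thinned counts (6.19%). DESeq2 called Krtap20-2 and Krtap3-2. No filter on low counts gave 28 of 53 members, beside 5.34% of all genes. Leaving out 1 library gave 1 to 23 of 49, beside 3.84% to 6.3%. The replicate block gave 25 of 49, all lower, beside 9.15% of all genes, with a median log2 fold change of the members of -3.13. Same-numbered libraries deviated together with correlations of -0.11, 0.18 and 0.05, and the other pairs with -0.22 to 0.14. These few values cannot tell if the numbers pair the samples, and the labels do not say. The cause of these differences was not tested. Over all genes 719 of 10843 were called, and 400 to 662 with 1 library left out. The fewest came on removal of anagen replicate 2 (400), mixed replicate 2 (439) and mixed replicate 3 (458). The block called 748 of 8177 genes and DESeq2 920 of 10843. In sorted epidermis, leaving out 1 library gave 45 to 47 of 49 members called, all lower. Beside them, 1549 of 10753 to 1917 of 10413 genes were called lower. In late organoids, leaving out 1 library gave 47 to 48 of 49, all lower. There 2124 of 10506 to 2735 of 10801 genes were called lower. The ratio of summed Krtap CPM, anagen over mixed, ran from 0.159 to 0.593 with 1 library left out, against 0.413. Without anagen replicate 3 or mixed replicate 3 the log2 fold changes of several named members moved by over 1.5 times, as given beside them. Members not called changed sign: Krtap11-1 (0.22) was -0.67 with the replicate block and ranged from -1.78 to 0.74 with 1 library left out, Krtap12-1 from -0.34 to 2.55, and Krtap27-1 from -2.14 to 0.16. Depth limits the levels outside follicles, where most members have no count.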
